A study of Caenorhabditis elegans with 6 samples.

Results

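The nuclear hormone receptor genes of *Caenorhabditis elegans* were examined in maps of open chromatin from germ nuclei. They were taken as all protein-coding genes of the Ensembl WBcel235 annotation whose name starts with *nhr-*, which gave 269 of the 19973 protein-coding genes on the 6 nuclear chromosomes. ATAC-seq, in which the transposase Tn5 inserts sequencing adapters into accessible DNA, had been carried out on isolated germ nuclei (IGN) of young adults grown at 20°C. There were 3 samples of wild-type worms (strain VC2010) and 3 of worms carrying the *prde-1(mj207)V* allele (strain SX2499), with no further treatment of either strain. PRDE-1 is a subunit of the upstream sequence transcription complex (USTC), which is needed for transcription of piRNA genes, and the study asked how loss of this complex changes chromatin at those genes. The mutant strain had been backcrossed to the N2 strain, becomes sterile over generations and was harvested later after plating than wild type, at a matched stage. The mj207 allele itself lies on chromosome V, as do many *nhr* genes.

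Nuclear hormone receptors are transcription factors with a zinc finger DNA binding domain and a ligand binding domain, many of which sense small lipophilic molecules. The family is much larger in nematodes than in insects or vertebrates, mainly through duplications of an ancestor related to HNF4, a receptor of liver and gut in mammals. A smaller set of nematode receptors has direct counterparts in other animals, with known roles in molting, embryonic development, sex determination and fat metabolism.

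A peak is a stretch of DNA where short ATAC-seq fragments pile up above background. The authors deposited 1 list of peaks per genotype, in which the 3 samples are pooled, so that no value below has a replicate error and no difference between genotypes could be tested. The wild type list holds 13996 peaks and the *prde-1* list 9674. Peaks were ranked within each list by the area under the −log10 p curve, rank 1 being the best, and scores were not compared between lists. A peak was assigned to a gene when it overlaps the gene body or the 500 bp on either side of the annotated 5′ end, and a peak was called shared if any base of it, 1 or more, was also covered in the list of the other genotype. Intervals in parentheses are 95% Wilson intervals, which cover counting error only. Sequencing depth behind the lists is unknown, so a peak that is missing from a list may lie just under the calling threshold. Genomic positions are in ce11.

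Sequences at some of the peaks are shown before the counts. The first set comprises the 120 bases directly upstream of the annotated 5′ end of 4 *nhr* genes on chromosome V, the best-ranked of those with a shared wild type peak whose summit lies within 100 bp of that end. They were chosen because most *nhr* genes lie on this chromosome, and stretches over an annotated UTR are not shown in any set. The stretches are *nhr-212* at chrV:484737-484856 (plus strand), *nhr-256* at chrV:1743651-1743770 (plus strand), *nhr-190* at chrV:642925-643044 (minus strand) and *nhr-47* at chrV:5505133-5505252 (plus strand), and each is written 5′ to 3′ on the strand of the gene. Capitals here and below mark TGATAA (the site of GATA factors), AGGTCA (the core hexamer bound by many nuclear receptors), TACGTG (a hypoxia response element) and CTCTCT (a CT repeat), each on either strand. None of these words contains another.
nhr-212: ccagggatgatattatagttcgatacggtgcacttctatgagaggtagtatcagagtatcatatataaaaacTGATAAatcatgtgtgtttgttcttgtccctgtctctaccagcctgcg
nhr-256: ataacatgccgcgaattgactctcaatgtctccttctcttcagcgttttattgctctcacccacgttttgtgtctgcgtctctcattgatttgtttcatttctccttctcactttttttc
nhr-190: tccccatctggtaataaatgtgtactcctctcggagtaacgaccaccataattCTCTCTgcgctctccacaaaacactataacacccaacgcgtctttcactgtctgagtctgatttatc
nhr-47: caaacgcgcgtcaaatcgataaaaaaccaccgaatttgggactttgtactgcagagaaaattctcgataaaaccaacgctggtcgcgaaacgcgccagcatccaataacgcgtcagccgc
Their wild type peaks rank 1864 (*nhr-212*), 2038 (*nhr-256*), 2122 (*nhr-190*) and 2523 (*nhr-47*), and the GC content of the printed stretches runs from 40% (*nhr-212*) to 49.2% (*nhr-47*). The TGATAA word is present upstream of *nhr-212* and a CT repeat upstream of *nhr-190*.

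The next set shows 120 bases centered on the summits of the best-ranked wild type peaks at *nhr* genes with no counterpart in the *prde-1* list. These are *nhr-15* at chrV:313141-313260 (plus strand), *nhr-59* at chrV:2277382-2277501 (minus strand), *nhr-119* at chrII:2796148-2796267 (minus strand) and *nhr-236* at chrIV:2329935-2330054 (minus strand). The peaks at *nhr-15*, *nhr-59* and *nhr-119* are intronic, and that at *nhr-236* lies 355 bp upstream of the 5′ end.
nhr-15: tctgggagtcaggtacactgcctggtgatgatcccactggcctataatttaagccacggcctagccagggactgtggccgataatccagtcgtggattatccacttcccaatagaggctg
nhr-59: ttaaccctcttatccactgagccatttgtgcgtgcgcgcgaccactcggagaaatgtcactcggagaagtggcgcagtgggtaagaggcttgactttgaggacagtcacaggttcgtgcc
nhr-119: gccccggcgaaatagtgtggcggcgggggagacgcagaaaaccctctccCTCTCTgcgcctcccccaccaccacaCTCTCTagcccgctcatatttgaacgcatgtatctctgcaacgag
nhr-236: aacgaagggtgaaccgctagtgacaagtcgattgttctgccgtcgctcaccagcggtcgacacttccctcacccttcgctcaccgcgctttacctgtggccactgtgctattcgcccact
The printed stretches have a GC content of 53.3% (*nhr-15*), 55% (*nhr-59*), 60.8% (*nhr-119*) and 58.3% (*nhr-236*), higher than any of the shared stretches above, although the sets differ in position relative to the gene. The CT repeat occurs at 2 places in the *nhr-119* stretch.

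The third set comprises the 120 bases upstream of the 5′ end of *nhr* genes that have a peak there in the *prde-1* list alone, for 4 of the 5 such genes, since the stretch of *nhr-176* overlaps an annotated UTR. They are *nhr-16* at chrII:4438685-4438804 (plus strand), *nhr-156* at chrV:3905986-3906105 (plus strand), *nhr-238* at chrV:1629433-1629552 (minus strand) and *nhr-202* at chrV:462468-462587 (plus strand).
nhr-16: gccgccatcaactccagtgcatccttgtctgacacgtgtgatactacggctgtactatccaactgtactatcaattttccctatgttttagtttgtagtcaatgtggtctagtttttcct
nhr-156: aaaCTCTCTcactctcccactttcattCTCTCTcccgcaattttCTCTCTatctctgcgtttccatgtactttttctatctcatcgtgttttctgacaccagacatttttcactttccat
nhr-238: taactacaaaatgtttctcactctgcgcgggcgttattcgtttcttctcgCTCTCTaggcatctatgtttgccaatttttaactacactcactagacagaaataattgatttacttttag
nhr-202: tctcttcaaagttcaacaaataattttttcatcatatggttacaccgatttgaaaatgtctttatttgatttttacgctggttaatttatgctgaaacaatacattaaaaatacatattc
The stretch upstream of *nhr-156* holds the CT repeat at 3 places and that of *nhr-238* at 1 place. The stretch upstream of *nhr-202* has a GC content of 25%, the lowest of those printed.

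Among the shared peaks, that of *nhr-57*, a receptor gene induced in low oxygen through HIF-1, carries the hypoxia response word near its summit, which lies 209 bp upstream of the annotated 5′ end. The 120 bases centered on the summit are chrV:4131620-4131739 (plus strand).
nhr-57: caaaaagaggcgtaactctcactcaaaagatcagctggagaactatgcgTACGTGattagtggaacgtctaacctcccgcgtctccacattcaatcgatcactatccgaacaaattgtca
The TACGTG word was searched for after this sequence had been seen. It was found in 7.47% of the windows of 150 bases on either side of wild type summits at *nhr* genes and in 6.72% of those of all wild type peaks.

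In wild type, 107 of 269 *nhr* genes had at least 1 peak in the body or near the 5′ end, or 39.8% (34.1 to 45.7), and the same share over all protein-coding genes was 39.4%. In the *prde-1* list 96 *nhr* genes had a peak, or 35.7% (30.2 to 41.6), against 31.2% of all protein-coding genes. Counting only peaks near the 5′ end, 85 *nhr* genes (31.6%) had one in wild type and 76 (28.3%) in the mutant list, against 30.6% and 25.1% of all genes. As a family, *nhr* genes thus carried wild type peaks about as often as other protein-coding genes. Peaks were found in both lists at 91 genes, in the wild type list alone at 16, in the *prde-1* list alone at 5 and in neither at 157. A *prde-1* peak alone was thus found at 1.86% of *nhr* genes, against 84 of 19973 protein-coding genes (0.421%), a share that rests on 5 *nhr* genes. Of the genes with a wild type peak, 14.95% of *nhr* genes and 21.8% of protein-coding genes (1715 of 7865) had no *prde-1* peak.

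Of the 269 *nhr* genes, 167 (62.1%) lie on chromosome V, which holds 4994 of the 19973 protein-coding genes. The others are spread over chromosome IV with 33, I and X with 23 each, II with 15 and III with 8. Chromosome V also held 57 of the 107 *nhr* genes with a wild type peak, or 53.3% (43.9 to 62.5), whereas 1385 of the 7865 protein-coding genes with a wild type peak lie on it. The family is thus concentrated on the chromosome with the lowest share of genes with a peak.

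Within chromosome V, 34.1% (27.4 to 41.6) of the *nhr* genes had a wild type peak, against 27.7% of all protein-coding genes there, and 29.3% (23.0 to 36.7) had a *prde-1* peak, against 22.1%. The lower limit of the interval for wild type lies just below the share for all genes of that chromosome, and that for *prde-1* just above it. On the X chromosome, 16 of 23 *nhr* genes had a peak in each list, and they were the same 16 genes, or 69.6% (49.1 to 84.4), against 39.2% of all X-linked genes in wild type and 29.9% in the mutant list. Chromosome I went the other way, with 7 of 23 *nhr* genes (30.4%, 15.6 to 50.9) against 50.5% of all its genes in wild type. On chromosome IV, 18 of 33 *nhr* genes (54.5%, 37.99 to 70.2) had a wild type peak against 37.3% of all its genes.

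**Figure D1:**
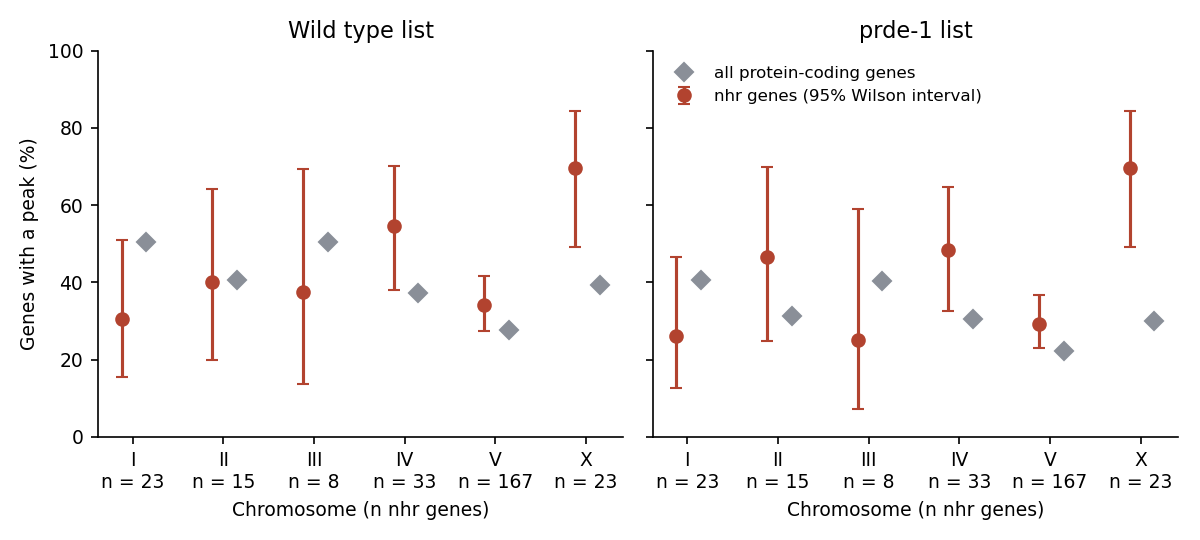
Share of genes with a peak on each chromosome (percent, vertical axis) in the wild type list (left) and the *prde-1* list (right). Red points are *nhr* genes with 95% Wilson intervals, and gray diamonds are all protein-coding genes of the chromosome. On X, 69.6% of 23 *nhr* genes had a peak in either list, above the diamonds at 39.2% and 29.9%, and on V the *nhr* point lies above the diamond in both lists, with wide intervals elsewhere.

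Gene length moved with these shares. The median length was 2309 bp for *nhr* genes and 2027 bp for all protein-coding genes, and 4483 bp against 2548 bp on X. Of the 24 *nhr* genes of up to 1500 bp, 0 had a wild type peak (upper Wilson limit 13.8%), where 28.7% of all genes of that length had one. The share rose with length, to 30.6% (23.4 to 38.9) of 134 *nhr* genes of 1500 to 2500 bp, 52.1% (40.8 to 63.1) of 73 genes of 2500 to 5000 bp and 73.7% (58.0 to 85.03) of the 38 longer ones. For all protein-coding genes the shares in these classes were 33.3%, 44.9% and 63.8%.

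Applying the rate of all genes of the same chromosome and length class to the *nhr* genes gives 35.0% with a wild type peak and 28.0% with a *prde-1* peak, below the 39.8% and 35.7% observed. For X-linked *nhr* genes the same calculation gives 46.7% in wild type and 36.3% in the mutant list, against 69.6% observed in both. For chromosome V it gives 27.5% and 22.1%, against 34.1% and 29.3%. Taking length into account thus raised the figure set beside the X-linked *nhr* genes and left that for chromosome V nearly where it was.

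Many *nhr* genes are neighbors. No other protein-coding gene lies between the members of 44 runs, which together hold 137 *nhr* genes, 107 of them on chromosome V, and the longest run holds 9. A wild type peak was found at 40 of the 137 genes in runs (29.2%) and at 67 of the 132 others (50.8%). Within chromosome V these shares were 34 of 107 (31.8%) and 23 of 60 (38.3%). Most runs are on V, so the split over all chromosomes also separates V from the rest.

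The arms of chromosome V carry many expanded gene families, and 66.5% of its 167 *nhr* genes lie in the arms, taken as the outer 25% of the chromosome at each end. There, 34.2% (26.1 to 43.5) of *nhr* genes had a wild type peak, against 23.9% of all protein-coding genes. In the central part 33.9% (22.9 to 47.0) of 56 *nhr* genes had one, against 31.2%. The share among *nhr* genes was thus nearly the same in arms and center, while that of all genes was lower in the arms.

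Duplicated genes can lose reads that map to several places, since reads of low mapping quality had been removed. In the 500 bases on either side of the 5′ end, on average 0.761% of 50-base words occurred more than once in the genome at *nhr* genes with a wild type peak and 4.44% at *nhr* genes with no peak in either list, and 3.79% over all protein-coding genes. More than 10% of the words were repeated at 16 of the 157 *nhr* genes without a peak and at 3 of the 107 with one. At most of the genes without a peak, then, little of the sequence near the 5′ end was repeated. The part of unmappable sequence in the missing peaks was not tested beyond these values.

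The 107 genes held 174 wild type peaks, and no peak was counted for more than 1 *nhr* gene. Their median rank was 7463 of 13996, their median width 282 bp and their median GC content 42.6%, against 334 bp and 44.2% over all wild type peaks. Summits lay upstream of the gene for 76 peaks, in introns for 69, in the 5′ UTR for 13, in coding exons for 9, downstream for 4, in the 3′ UTR for 2 and in another exon for 1. For 152 of the 174 peaks the nearest protein-coding 5′ end was that of an *nhr* gene. A tRNA gene lies inside the peaks at *nhr-17*, *nhr-41*, *nhr-150*, *nhr-193* and *nhr-255* and a snoRNA gene inside that at *nhr-102*. Over all 13996 wild type peaks, 754 held a tRNA, snRNA or snoRNA gene.

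At the 5′ ends the summits of *nhr* peaks were placed somewhat differently from those of other genes. Of the 97 wild type peaks within 500 bp of an *nhr* 5′ end, 25 (25.8%) had the summit in the 100 bp directly upstream, against 13.9% of 7313 gene and peak pairs over all protein-coding genes. The median summit offset was -110 bp for *nhr* genes and -148 bp for all. The difference was larger on chromosome V, where the best-ranked 5′ end peak had its summit within 100 bp of the 5′ end for 24 of 49 *nhr* genes (49%), against 262 of 1097 genes of that chromosome (23.9%). Outside V the figures were 9 of 36 *nhr* genes (25%) and 958 of 5017 genes (19.1%). The sets compared differ in how peaks are counted. Over all protein-coding genes, a peak near several 5′ ends counts for each of them, and the 7313 pairs come from 5914 peaks. No peak counted for more than 1 *nhr* gene. Of the 85 *nhr* genes with a 5′ end peak, 3 have another protein-coding 5′ end within 500 bp. The part of this in the offset difference was not tested.

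**Figure D2:**
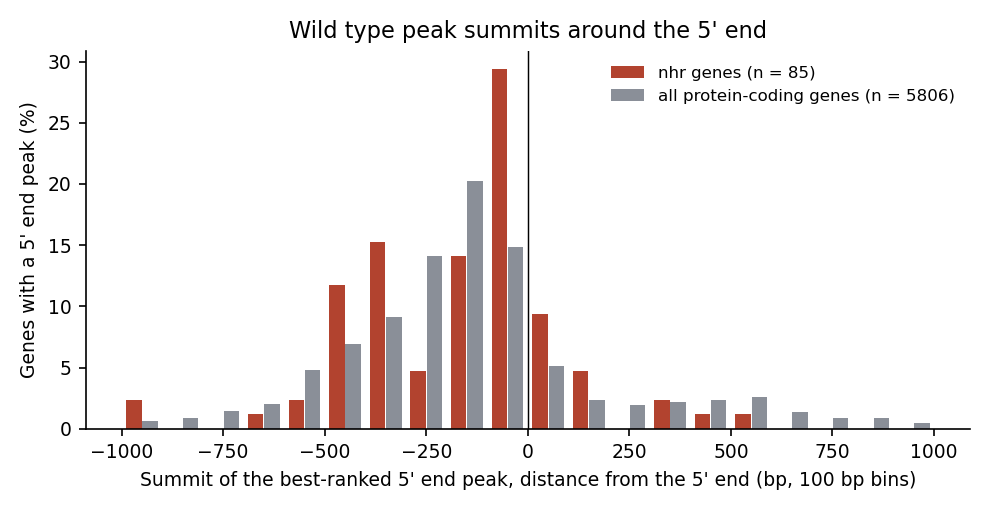
Distance of the summit of the best-ranked 5′ end peak from the annotated 5′ end in wild type (bp, 100 bp bins, negative upstream), as the share of genes with a 5′ end peak (percent). Red bars are 85 *nhr* genes and gray bars are all protein-coding genes, of which 5806 of 6114 have the summit within the range drawn. The red bar of the bin directly upstream of the 5′ end is at 29.4% and its gray neighbor at 14.8%. A peak near the 5′ ends of several genes can count for each of them.

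These peaks on V were narrow. The median width of the best-ranked 5′ end peak was 245 bp for *nhr* genes on V, 409 bp for *nhr* genes elsewhere and 352 bp for all genes on V. The corresponding median GC contents were 39.0%, 43.1% and 41.5%, and the median ranks 6484, 4495 and 5655. Where a 5′ end is annotated from a start codon alone, offsets cannot be read as distances from a transcription start. That holds for 63 of the 269 *nhr* genes (23.4%), close to the 23.8% of all genes. On V it holds for 33.5% of all genes, 21.6% of *nhr* genes and 12.2% of the 49 *nhr* genes with a 5′ end wild type peak. Among the 24 of these 49 with the summit within 100 bp it holds for 1. For all genes of V with a 5′ end peak, the set used in the offset comparison, this share is not given here. The part of the annotation in the offset difference was not tested. GC content of the 120 bp upstream had a median of 38.3% at the 49 *nhr* genes of V with a 5′ end wild type peak and 33.8% at the 118 without one. Over all genes of V, with or without a peak, it was 33.3%. The value for all genes of V with a 5′ end peak is not given here.

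Several peaks were found at 21 *nhr* genes, which had 3 or more in wild type, or 7.81% of the family against 5.06% of all protein-coding genes. Another 12 genes had 2 peaks and 74 had 1. The 21 genes held 76 of the 174 peaks, and just 2 of them, *nhr-59* and *nhr-142*, lie on chromosome V. They were long, with a median of 5030 bp, against 2502 bp for genes with 1 peak and 2067 bp for genes without any.

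The most peaks, 8, were found at *nhr-41* on chromosome IV, a counterpart of the insect receptor DHR78. Of these, 6 are intronic and 2 lie upstream, and just 3 had a *prde-1* counterpart. The best of them, rank 2042 at chrIV:1387859-1388506, also holds a tRNA gene. The 5 peaks without a counterpart ranked from 7669 to 13775.

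The gene with the next largest number, *nhr-27* on X, had 5 peaks in each list, and 4 of the wild type peaks were shared. It is by far the longest member at 102756 bp, and all its peaks lie in introns. The nearest protein-coding 5′ end was in each case that of another gene, *cept-1*, *alh-13*, *abf-6* or *rgs-2*, so these peaks cannot be credited to *nhr-27* on position alone. The summit region of its best-ranked peak, rank 2610, holds the AGGTCA hexamer.

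Exactly 4 peaks each were found at *nhr-19*, *nhr-23*, *nhr-34*, *nhr-61*, *nhr-64* and *nhr-66*. All 4 peaks of *nhr-19* on chromosome II are intronic and all were shared, with wild type ranks of 1449, 3548, 5238 and 10383. At *nhr-64*, an HNF4-related receptor on chromosome I, the best peak (rank 1188) lies over the 5′ UTR, 38 bp from the 5′ end, and 3 weaker intronic peaks were shared as well. At *nhr-23*, the counterpart of ROR and DHR3 with a role in molting, an intronic peak of 1126 bp ranked 1108 and a 5′ UTR peak ranked 2770.

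At *nhr-66* the best-ranked peak (rank 397) lies 7018 bp into the gene, over an internal 5′ UTR that starts a shorter annotated transcript. Such internal starts were near 18 of the 77 wild type peaks that lie in *nhr* gene bodies away from the 5′ end of the gene record, and 2 were near the 5′ end of another protein-coding gene. For most body peaks neither kind of annotated start lay within 500 bp.

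Exactly 3 peaks each were found at *nhr-3*, *nhr-14*, *nhr-22*, *nhr-28*, *nhr-48*, *nhr-49*, *nhr-59*, *nhr-80*, *nhr-88*, *nhr-119*, *nhr-142*, *nhr-146* and *nhr-236*. The peaks at *nhr-3* on X stand out for their similar size, with widths of 1170, 1171 and 1154 bp upstream, inside and downstream of the gene. They had wild type ranks of 1365, 711 and 1798 and mutant ranks of 1442, 453 and 1686. At *nhr-49*, *nhr-48* and *nhr-80* a strong upstream peak was shared and at least 1 weaker intronic peak was not.

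**Figure D3:**
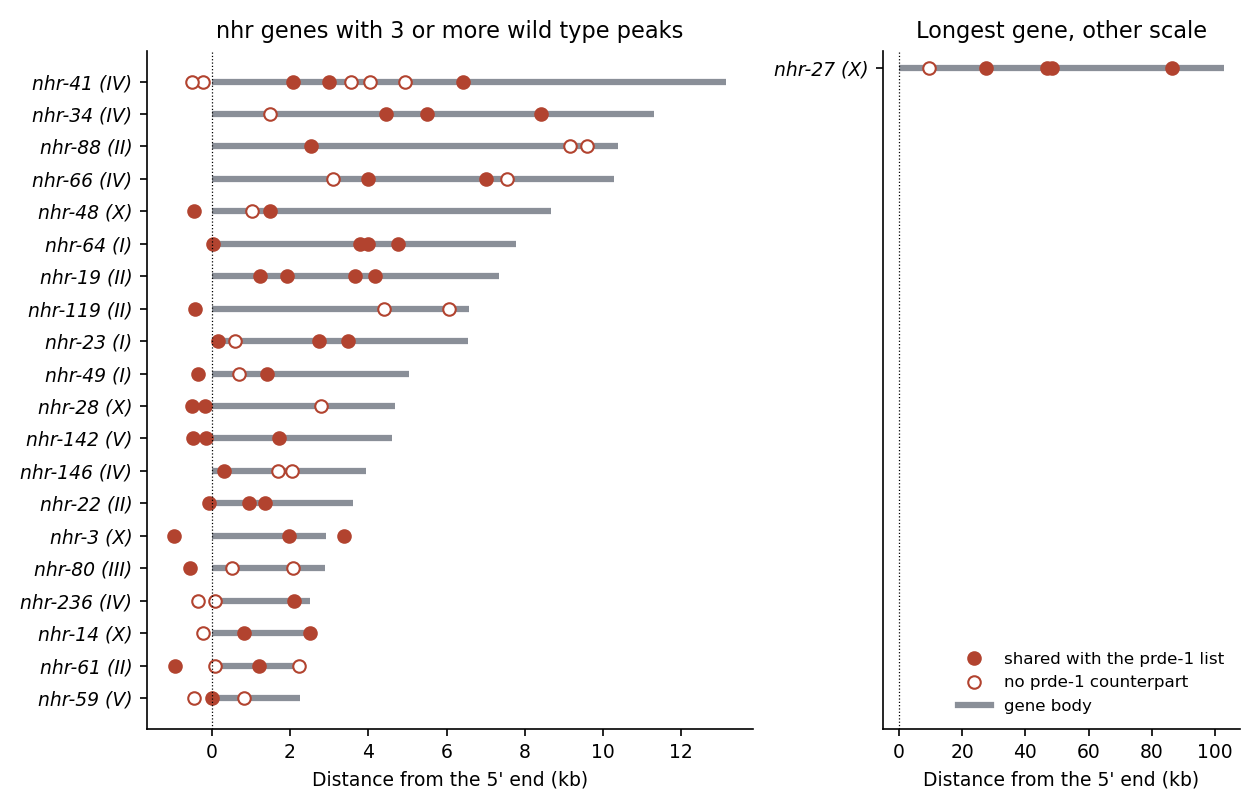
Summits of wild type peaks along the 21 *nhr* genes with 3 or more (distance from the 5′ end in kb, chromosome in parentheses), with *nhr-27* on its own scale. Gray bars are gene bodies, filled points are peaks shared with the *prde-1* list and open points peaks without a counterpart. Of the 76 peaks, 28 are open (36.8%, against 36.5% of wild type peaks at all protein-coding genes). At *nhr-41* 5 points are open, whereas all points of *nhr-3*, *nhr-19*, *nhr-22*, *nhr-64* and *nhr-142* are filled.

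The 5 best-ranked wild type peaks at *nhr* genes were those of *nhr-114* (rank 259), *nhr-46* (rank 313), *nhr-66* (rank 397), *nhr-17* (rank 500) and *nhr-49* (rank 558). In the *prde-1* list the best were *nhr-46* (rank 228), *nhr-66* (rank 337), *nhr-49* (rank 381), *nhr-3* (rank 453) and *nhr-1* (rank 471). The leading peaks were thus largely those of the same genes, and each of the 7 genes named had a shared peak.

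The *nhr-114* peak, at chrV:4186048-4189519, is 3472 bp wide and spans the 5′ end. This receptor gene acts in intestine and germ line and protects fertility on certain bacterial diets. Its −log10 p at the summit is 19.5, lower than the 34.2 of the narrower *nhr-49* peak, since the ranking score adds up over the width. In the *prde-1* list 2 peaks overlap it, at ranks 855 and 9557.

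The *nhr-46* peak at chrIV:5752996-5754599 is 1604 bp wide and intronic, and that of *nhr-49* at chrI:9869082-9869778 has its summit 351 bp upstream of the 5′ end. The wide *nhr-17* peak at chrX:12663584-12666216 also holds a tRNA gene and is nearest to the 5′ end of *nlp-76*, a neuropeptide gene.

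Among 12 receptors with counterparts in insects or vertebrates, 8 had a wild type peak and the same number a *prde-1* peak, where 39.4% and 31.2% of all protein-coding genes had one. These were *nhr-8*, *nhr-23*, *nhr-25*, *nhr-41*, *nhr-48*, *nhr-64*, *nhr-85* and *nhr-91*. Most of the 12 genes are longer than 5000 bp. Of all protein-coding genes of that length, 63.8% had a wild type peak and 50.8% a *prde-1* peak. No peak was found in either list at *nhr-6* (related to NR4A receptors), *nhr-67* (tailless), *nhr-69* (HNF4) and *nhr-111*. The *nhr-25* gene, the counterpart of FTZ-F1 with roles in molting and gonad development, had a peak of 1135 bp over its 5′ end and first intron at rank 1829, which ranked 3180 in the *prde-1* list. At *nhr-8*, a relative of DAF-12 with a role in cholesterol and xenobiotic handling, the single peak lies 5 bp from the 5′ end at rank 8756.

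Of 13 receptors of metabolism and stress responses, 10 had a wild type peak and 10 a *prde-1* peak, beside the same 39.4% and 31.2% of all genes. The role lists were put together with results of these data known, so no more than the counts can be read from them. The strongest of them was the upstream peak of *nhr-49*, which regulates fatty acid desaturation and oxidation. The partner receptors that act with NHR-49 on lipid genes, *nhr-80*, *nhr-13* and *nhr-66*, had shared peaks with best wild type ranks of 1165, 3864 and 397. The *nhr-80* summit, 553 bp upstream, is nearer to the 5′ end of the neighboring gene H10E21.1, and the leading *nhr-66* peak to that of serp-1.2.

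The peaks of *nhr-57* (rank 1628), *nhr-68* (rank 4316, nearest to the 5′ end of H12C20.7), which regulates propionate breakdown, and *nhr-86* (rank 3916), a sensor of bacterial metabolites, were shared too. At *nhr-62*, needed for lifespan extension under dietary restriction, both wild type peaks lacked a counterpart and ranked 9981 and 11859. At *nhr-176*, involved in the response to the drug thiabendazole, a peak was listed for *prde-1* alone, and *nhr-10* and *nhr-31* had none in either list.

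Of 7 receptors of development, 5 had peaks in both lists, and *nhr-6* and *nhr-67* had none. The *nhr-2* gene, which acts in the early embryo, had peaks at ranks 3903 and 3982 on either side of its 5′ end, both shared. At *nhr-40*, needed for muscle development, the peak lies 5022 bp into the gene and is nearest to the 5′ end of T03G6.7, and at *nhr-85*, a counterpart of E75 and Rev-erb, both peaks lie in introns.

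Receptor genes with other names were looked at beside the *nhr* genes. Of 5 of these, *daf-12* and *sex-1* had peaks in both lists, and *fax-1*, *odr-7* and *unc-55*, which act in neurons, had none. The best *daf-12* peak ranked 287 and that of *sex-1*, a dosage sensor of sex determination, 1301. All 4 coregulators examined, *mdt-15*, *cbp-1*, *din-1* and *gei-8*, had peaks in both lists, with the best ranks at *din-1* (11) and *cbp-1* (73). DIN-1 is the corepressor that acts with DAF-12, and CBP-1 is a histone acetyltransferase.

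Of the 174 wild type peaks at *nhr* genes, 52 had no counterpart in the *prde-1* list, or 29.9% (23.6 to 37.1), against 36.5% of wild type peaks at protein-coding genes. Near 5′ ends the figures were 22 of 97 (22.7%, 15.5 to 32.0) and 25.4%. Among peaks in gene bodies alone they were 30 of 77 (39.0%, 28.8 to 50.1) and 51.2% of 4476. At the level of genes, 16 of the 107 *nhr* genes with a wild type peak had none in the *prde-1* list, or 14.95% (9.42 to 22.9), against 21.8% of all such genes. The *nhr* family thus showed no higher share of unmatched peaks than protein-coding genes as a whole.

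Peaks without a counterpart were those of low rank. None of the 53 *nhr* peaks in the first 3 deciles of the wild type list lacked one, and 16 of 20 in the last decile did. Over all wild type peaks, 0.5%, 0.786% and 3.36% lacked one in the first 3 deciles and 89.9% in the last, so this holds for peaks in general. Shared *nhr* peaks had a median rank of 4978 and unmatched peaks one of 10439. Applying the rate of all wild type peaks of the same decile gives 35.8% without a counterpart, against 29.9% observed.

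**Figure D4:**
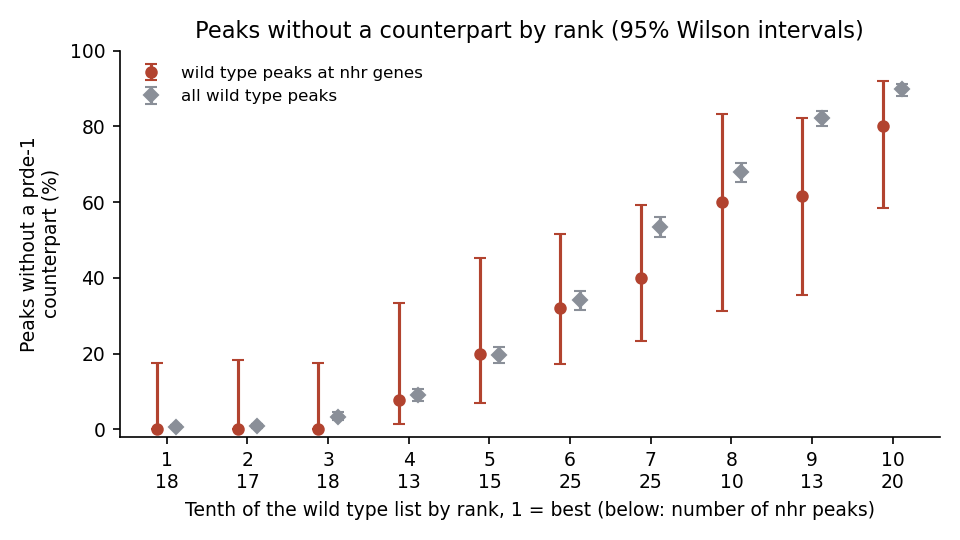
Percentage of wild type peaks that no *prde-1* peak overlaps, by decile of rank in the wild type list, decile 1 holding the best-ranked peaks, with the number of *nhr* peaks under each decile. Red points are peaks at *nhr* genes and gray diamonds all wild type peaks, with 95% Wilson intervals. The red points are at 0 in the first 3 deciles, where the diamonds are at 0.5%, 0.786% and 3.36%. In the last decile the red point is at 80% and the diamond at 89.9%.

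GC content moved with the loss as well. In the quintile of all wild type peaks with the lowest GC content, 7 of 57 *nhr* peaks had no counterpart, and in the highest quintile 19 of 25, against 15.3% and 67.3% of all wild type peaks. The median GC content was 41.1% for the 122 shared *nhr* peaks and 48% for the 52 unmatched ones. Rates by rank decile and GC quintile together give 32.5%. Depth and time of harvest cannot be told apart from genotype in the pooled lists.

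Where *nhr* peaks were shared, they were shared closely. The distance between the wild type and *prde-1* summits had a median of 1.5 bp, and 116 of 122 pairs lay within 50 bp of each other, against 91.2% of all 8949 shared peaks. The *prde-1* peak was narrower at 98 of the 122 (80.3%), with a median width ratio of 0.938. Over all shared peaks it was narrower at 86.9%, and the ratio was 0.893. Shared peaks alone were then ordered by score in each list. Of the 122 *nhr* peaks, 90 (73.8%) stood earlier in the *prde-1* order than in the wild type order. Of all 8949 shared peaks, 5170 (57.8%) did. The median shift was -5.01 percentage points of the order for *nhr* peaks, and is not given here for all shared peaks.

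Some members moved far from this general agreement. The intronic *nhr-88* peak stood at 31.7% of the wild type order and at 77.7% of the *prde-1* order, and the *nhr-43* peak at 52.0% and 79.9%. The *nhr-17* peak upstream of the gene went from 81.2% to 43.0%. These 3 were picked for the size of their shift, so the values describe the extremes of the set.

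**Figure D5:**
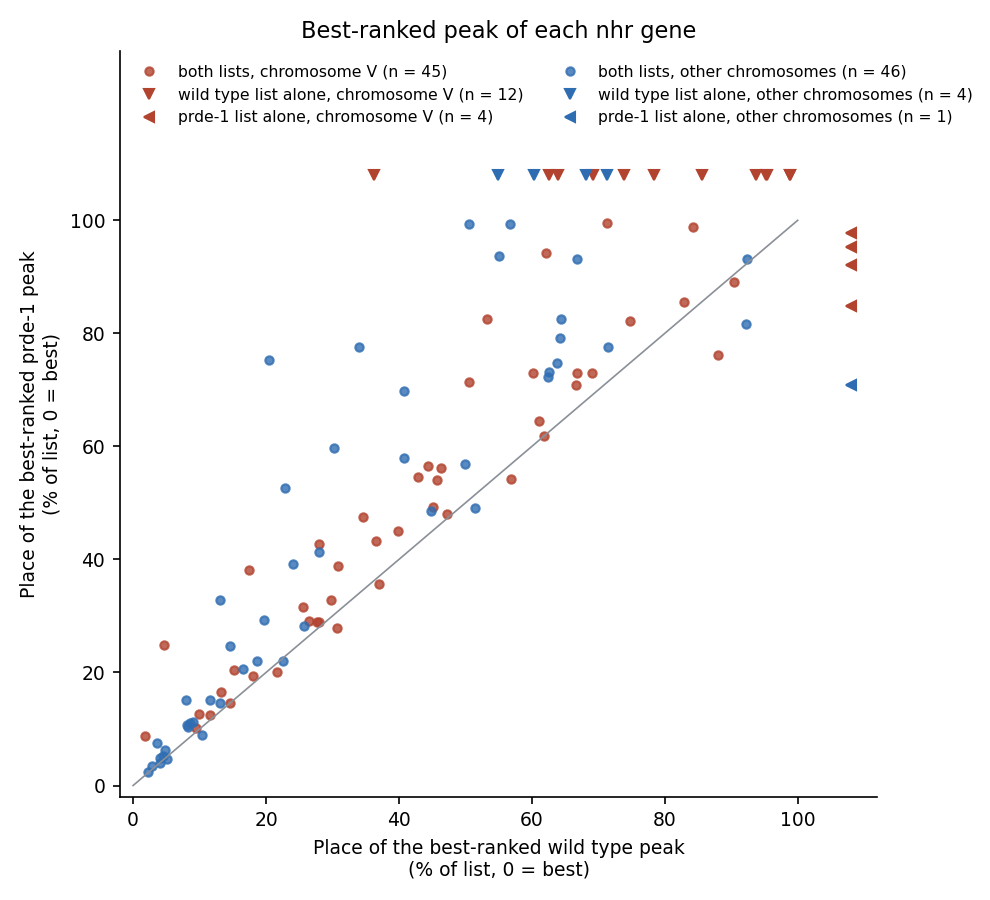
Place of the best-ranked peak of each *nhr* gene in the wild type list (horizontal axis) and the *prde-1* list (vertical axis), in percent of the list, 0 being the best, with the line of equal places. Points are the 91 genes with peaks in both lists, downward triangles the 16 genes with a wild type peak alone and left-pointing triangles the 5 with a *prde-1* peak alone, in red for chromosome V and blue for the others. Points run close to the line among the best-ranked genes, and most others lie above it. The lists differ in length, with 13996 wild type and 9674 *prde-1* peaks. When shared peaks alone were ordered, 90 of 122 *nhr* peaks stood earlier in the *prde-1* order.

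Of the 16 *nhr* genes with a wild type peak and no *prde-1* peak, 12 lie on chromosome V and none on X, where V holds 57 of the 107 *nhr* genes with a wild type peak. Over all protein-coding genes with a wild type peak alone, 310 of 1715 lie on V, or 18.1%. Of all protein-coding genes with a wild type peak, 17.6% lie on V. Within V, 12 of 57 *nhr* genes and 310 of 1385 protein-coding genes with a wild type peak had no *prde-1* peak. These shares are similar. The best-ranked of the 16 *nhr* genes were *nhr-15* (rank 5062), *nhr-277* (rank 7678), *nhr-239* (rank 8442), *nhr-211* (rank 8762) and *nhr-79* (rank 8950). All 5 of these peaks lie in introns. Their −log10 p at the summit ran from 4.93 at *nhr-239* to 8.12 at *nhr-15*.

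A *prde-1* peak without a wild type counterpart was found 6 times among 131 *prde-1* peaks at *nhr* genes, or 4.58% (2.12 to 9.63), against 1.73% of *prde-1* peaks at protein-coding genes. These were weak peaks, at ranks 6847 (*nhr-16*), 8214 (*nhr-156*), 8905 (*nhr-176*), 9220 (*nhr-238*), 9354 (*nhr-27*) and 9454 (*nhr-202*) of 9674. In all but *nhr-27*, whose peak is intronic, the summit lies within 127 bp of the 5′ end, and for these 5 genes the *prde-1* list gives the only peak. The −log10 p at the summit ran from 4.15 at *nhr-176* to 5.53 at *nhr-16*. With 6 peaks, the share rests on few observations.

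The piRNA domains, taken as the windows of chromosome IV richest in piRNA genes, hold 3 *nhr* genes. At *nhr-46* both wild type peaks were shared, *nhr-5* had 1 intronic wild type peak (rank 9536) without a counterpart, and *nhr-229* had no peak. Of the 707 protein-coding genes there, 186 (26.3%) had a wild type peak and 152 (21.5%) a *prde-1* peak. The strong *nhr-46* peak therefore lies in a region where peaks at genes were sparse, and it was shared with the mutant list.

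Sequence words were searched for in the 150 bases on either side of each summit. The receptor hexamer AGGTCA occurred at 30 of 174 *nhr* peaks (17.2%, 12.4 to 23.6) and at 11.4% of all wild type peaks, with 16 of the 122 shared peaks (13.1%) and 14 of the 52 unmatched ones (26.9%) holding it. Over all wild type peaks it occurred at 10.98% of shared peaks and 12.24% of unmatched ones. Near 5′ ends the figures were 9.28% for *nhr* peaks and 10.5% for all. Among peaks in gene bodies alone it occurred at 21 of 77 *nhr* peaks (27.3%, 18.6 to 38.1) and at 11.5% of 4476 peaks at protein-coding genes. The hexamer was thus more frequent at these body peaks and not at *nhr* 5′ ends. Some genes, *nhr-41* and *nhr-27* among them, hold several of the 77 peaks, and the interval counts each peak as separate. The GATA factor word TGATAA occurred at 45 *nhr* peaks (25.9%, 19.9 to 32.8) and 20.7% of all. The core of the motif upstream of piRNA genes, CTGTTTCA, was found at 2 *nhr* peaks (1.15%) and 1.43% of all.

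Whether the nuclei were free of other tissues was looked at with marker genes. Of 10 germline genes, 8 had a wild type peak, with none at *him-3* and *syp-1*, as did 6 of 8 intestinal, 5 of 5 body muscle, 4 of 5 neuronal and 2 of 4 hypodermal genes. Peaks in the *prde-1* list were found at 8, 7, 4, 4 and 0 of these. Over all protein-coding genes the shares were 39.4% and 31.2%. The best-ranked wild type peaks at these markers were at the intestinal genes *vit-2* (rank 2) and *vit-6* (rank 3). The best at a germline gene was that of *glh-1* (rank 201). The best at neuronal, muscle and hypodermal genes ranked 1550, 2429 and 4858. In the *prde-1* list *vit-2* and *vit-6* ranked 11 and 24, and the best germline peak, at *pgl-3*, ranked 200. The presence of a peak does not separate germline genes from somatic genes in these lists, and the part of other tissues in the *nhr* peaks was not tested. At *prde-1* itself neither list has a peak. The lists hold no sequence of the samples, so they carry no check of the allele.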

How the data were processed

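The samples were IGN of 2 genotypes, 3 wild type and 3 *prde-1*, each assayed by ATAC-seq. Per the methods and the submitters' processing notes, the authors used cutadapt for adapters, Bowtie2 for alignment (ce11) and Genrich for peaks. They also discarded poorly mapped, mitochondrial and duplicate reads, brought replicates to similar depth, merged them, selected short fragments and corrected for the Tn5 offset. Whether Genrich was given the merged, size-selected reads is not given in the sources used here. Versions are not given in the sources used here. Each deposited list holds a score, which is the area of the −log10 p curve over the peak, a capped copy of that score, and the deposited −log10 p at the summit, which carries no correction for multiple testing. There are 0 columns of values per sample, so read depth per sample is unknown. The lowest score is 200.005 in wild type and 200.004 in *prde-1*, which marks the calling minimum.

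Genes and their 5′ ends were taken from Ensembl release 115 and sequence from the WBcel235 assembly, which is ce11; no peak ran past the end of its chromosome. Gene assignment, overlap and intervals were computed with Python 3.11.15, numpy 2.4.6 and scipy 1.17.1, and figures with matplotlib 3.10.9. The assignment and overlap counts were tested on simulated peaks placed at known genes. No test was run on the lists. Printed sequences leave out UTRs and genes of chromosome I. Most shares are given beside the same share over all protein-coding genes or all peaks. The genes named are those of the role lists, those with 3 or more wild type peaks, the 5 best-ranked in each list, the 5 best-ranked with a wild type peak alone, those with a *prde-1* peak of their own and those in the piRNA domains; genes named for a shift in order or for their printed sequence were chosen after their values were seen. The members and lists were chosen with earlier results of these data known, and the words TACGTG and CTCTCT were chosen after sequences had been seen.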

Additional observations from a re-analysis of the deposited data

How the results depend on the processing

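No paired analysis was possible because each deposited list pools the 3 samples of its genotype. Of 46 values of 4 shares under other settings, 35 stayed within the interval of the reported value. The share of *nhr* genes with a wild type peak, 39.8% as reported, was 31.6% with the 5′ end only, 32.0% with the gene body only, 23.4% with the upper 50% of each list and 32.7% with equal numbers of peaks. Under those settings the shares over all protein-coding genes were 30.6%, 29.6%, 25.9% and 32.1%. The share with a *prde-1* peak, 35.7% as reported, was 28.3% with the 5′ end only, 26.8% with the gene body only and 19.3% with the upper 50% of each list, against 25.1%, 19.8% and 18.9% of all protein-coding genes. The share of wild type peaks at *nhr* genes without a counterpart, 29.9% as reported, was 22.7% with the 5′ end only and 22.2% with the upper 50%, against 25.4% and 34.0% of peaks at all protein-coding genes. It was 16.4% with equal numbers of peaks, against 17.1% of peaks at all protein-coding genes. When at least 50% of the wild type peak had to be covered it was 37.9%. For that setting the share over all protein-coding genes is not given here, so the rise cannot be read as particular to *nhr* peaks. All of these settings count fewer peaks or set a stricter rule. The share of *nhr* genes with a wild type peak that lie on chromosome V ran from 47.2% without *nhr* genes that overlap another to 57.6% with the 5′ end only. Pooled lists, unknown depth and the calling minimum limit what absence of a peak can show, and ranks depend on peak width.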

Other observations

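The CT repeat CTCTCT, or AGAGAG on the other strand, was looked for after it had been seen in printed stretches. It occurred in the 150 bases on either side of the summit at 79 of 174 wild type peaks at *nhr* genes, or 45.4% (38.2 to 52.8), and at 33.9% of all wild type peaks. Among shared peaks the figures were 53.3% (44.5 to 61.9) of 122 at *nhr* genes and 39.5% of all 8949, and among peaks without a counterpart 26.9% (16.8 to 40.3) of 52 and 24.0% of all 5047. Within 500 bp of the 5′ end they were 46.4% of 97 *nhr* peaks and 30.3% of 5914 peaks at protein-coding genes. Of the 6 *prde-1* peaks at *nhr* genes without a wild type counterpart, 4 held it. As the word was noticed in these same peaks, the values are a description.

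Repeat-masked sequence made up at least 50% of the bases of 5 of the 174 wild type peaks at *nhr* genes, or 2.87%, and of 8.97% of all wild type peaks. Of the 5, 4 had no *prde-1* counterpart, and of all 1255 such wild type peaks 561 had none (44.7%).

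The number of peaks was lower in the *prde-1* list than in the wild type list at 35 *nhr* genes (31.2% of those with a peak in either list) and higher at 7 (6.25%), against 41.7% and 4.68% of the 7949 protein-coding genes with a peak in either list. At *nhr-17* the wide wild type peak of 2633 bp is overlapped by 2 *prde-1* peaks, at ranks 722 and 4392, so that the count went from 2 to 3 with no region gained.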
